A study of Mus musculus with 4 samples.

Results

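The 10 genes described here encode granule proteins, cytosolic S100 proteins and receptors of neutrophils, and they were measured in the hearts of mice with and without exercise and with and without cancer. They were taken from the heart mRNA-seq data by their symbols, S100a8, S100a9, Ngp, Camp, Ltf, Retnlg, Elane, Mpo, Csf3r and Fpr1, and make up 10 of the 23282 genes listed. All 10 had at least 1 read, as had 17174 of all genes. The heart data hold 4 libraries of CDF1 mice, whose labels give an age of 28 postnatal days. Per the paper, the mice were of that age when purchased, and the hearts were taken later, at the end of the experiment. The label is thus not the age at which the hearts were sampled. Normal control mice, E(−)T(−), neither ran nor received cancer cells. Normal exercise mice, E(+)T(−), ran on a motorized treadmill at high intensity. Cancer control mice, E(−)T(+), received CT26 cells, a colorectal cancer line of the mouse, through the tail vein and did not run. Cancer exercise mice, E(+)T(+), received the same cells and ran. The labels write these groups as E-&T-, E+&T-, E-&T+ and E+&T+. Each group counted 10 mice, but each is represented by 1 heart library, and the number of hearts behind a library is not given outright. The study took the gastrocnemius from a representative mouse per group and describes the heart as analysed in a similar way. The cells were injected into the blood and spread beyond a single organ, so T(+) stands for disseminated cancer. The mice were exsanguinated under anesthesia, and a perfusion of the hearts is not stated, so that blood cells in the vessels may be part of a sample.

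Neutrophils are short-lived white blood cells made in the bone marrow. During maturation they fill granules in a fixed order. Primary granules carry myeloperoxidase and serine proteases, and their genes are transcribed in early precursors. Secondary and tertiary granules carry lactoferrin, cathelicidin, lipocalin and collagenases, and their genes are transcribed later. The cytosol of the mature cell is filled with S100A8 and S100A9, which pair into calprotectin, a calcium-binding complex that withholds zinc and manganese from microbes and acts as a danger signal when released. In the heart neutrophils are rare at rest and enter after injury or in systemic inflammation.

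With cancer, S100a8 and S100a9 were the 2 most abundant of the 10 genes and were 29.1-fold and 23.9-fold higher in E(−)T(+) than in E(−)T(−). Ngp, Camp and Retnlg were higher with them. As deposited, all 5 were higher again in E(+)T(+), by less than 2.5-fold for each, and Camp was not when reads were scaled to library totals. The primary granule genes Elane and Mpo and the receptor genes Csf3r and Fpr1 stayed at 12 reads or fewer in every library. With 1 library per group, the differences are between libraries, they have no replicate check, and no p-values are given.

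Levels are given as reads and as the log2 values deposited by the authors, which are log2(normalized reads + 1). The QuantSeq kit reads the 3′ end of mRNA, so a read stands for a transcript and levels can be set side by side between genes without a length. Totals ran from 6595426 reads in E(−)T(−) to 11545931 in E(+)T(+), and 15084 to 15632 genes per library had a read. Globin genes took 37.3% of the reads in E(+)T(+) and 7.86% to 8.76% in the other libraries. A gene was called higher or lower when its deposited values differed by at least 2-fold and at least 1 of the 2 libraries held 4 normalized reads. Each interval is a 95% Clopper-Pearson interval for a ratio of reads, set at the effective size of each library, and counting error is all that it covers. In whole tissue, fewer cells of a type and less RNA per cell cannot be told apart.

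The promoters of 4 genes with large changes are shown because C/EBP factors and PU.1 drive granule genes during neutrophil maturation. The sequences are from RefSeq on GRCm38.p6 and give, 5′ to 3′ on the gene's own strand, up to 160 bases before both the RefSeq start and the GENCODE gene. Capitals mark matches to the C/EBP pattern TTNNGNAA and the PU.1 pattern GAGGAAG on either strand. The S100a8 stretch is chr3:90668821-90668977 on the plus strand, and that of S100a9 is chr3:90695722-90695881 on the minus strand. The stretch of Ngp is chr9:110419587-110419746 on the plus strand, and that of Camp is chr9:109849618-109849706 on the minus strand.
S100a8: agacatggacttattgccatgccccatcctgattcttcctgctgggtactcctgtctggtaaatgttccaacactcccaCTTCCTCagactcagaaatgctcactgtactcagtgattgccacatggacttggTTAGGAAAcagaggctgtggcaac
S100a9: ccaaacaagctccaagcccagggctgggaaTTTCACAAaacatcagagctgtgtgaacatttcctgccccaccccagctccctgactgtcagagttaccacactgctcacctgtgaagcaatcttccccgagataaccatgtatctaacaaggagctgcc
Ngp: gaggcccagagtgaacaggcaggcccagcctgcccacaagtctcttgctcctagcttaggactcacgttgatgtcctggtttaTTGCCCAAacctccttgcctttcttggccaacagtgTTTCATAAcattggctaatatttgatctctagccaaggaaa
Camp: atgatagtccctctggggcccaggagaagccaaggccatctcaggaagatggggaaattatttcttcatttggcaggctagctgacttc

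In the 250 bases before the RefSeq start, 6 of the 10 genes held the C/EBP pattern and 4 the PU.1 pattern, whereas 36.8% and 10.6% of the 32851 RefSeq promoters searched did. The pattern TATAAA was found in 2 of the 10 and in 12.4% of all. S100a8 held all 3 patterns, with the C/EBP match 117 to 110 bases before the start and the PU.1 match 171 to 165 bases before it. S100a9 held 2 C/EBP matches, of which the nearer lay 130 to 123 bases before the start. Ngp held 3. The PU.1 matches of the other genes stood before Elane, Mpo and Csf3r. Camp held none of the 3 patterns in this window. The C/EBP and PU.1 patterns can share bases, but no matches of the 10 genes overlapped. A match is a description of letters and not a measured binding site.

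S100a8 lies at chr3:90668978-90670035 on the plus strand of GRCm38 and S100a9 at chr3:90692632-90695721 on the minus strand, so that the pair are neighbours on chromosome 3. Ngp, Camp and Ltf lie on chromosome 9 within chr9:109847379-111042767. Retnlg lies on chromosome 16, Elane on chromosome 10, Mpo on chromosome 11, Csf3r on chromosome 4 and Fpr1 on chromosome 17. In the GENCODE annotation, Mpo is overlapped by Gm11505, an antisense gene. Since the sources do not say whether counting used the strand, reads of that pair cannot be told apart. No other gene of the 10 overlaps an annotated gene.

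S100a8 encodes the smaller partner of calprotectin. Its reads numbered 40 in the normal control, 38 in the normal exercise, 1511 in the cancer control and 2537 in the cancer exercise library, or log2 values of 5.56, 5.14, 10.38 and 11.44. The 2 libraries with cancer stood far above the 2 without, and E(+)T(+) was highest. S100a9, the other partner, had 54, 40, 1674 and 2329 reads in the same order, or log2 values of 5.98, 5.21, 10.53 and 11.32. Both genes thus had the same order of the libraries with cancer. In reads per 1000000 reads (RPM), S100a8 had 6.06, 4.48, 159 and 220.

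**Figure D1:**
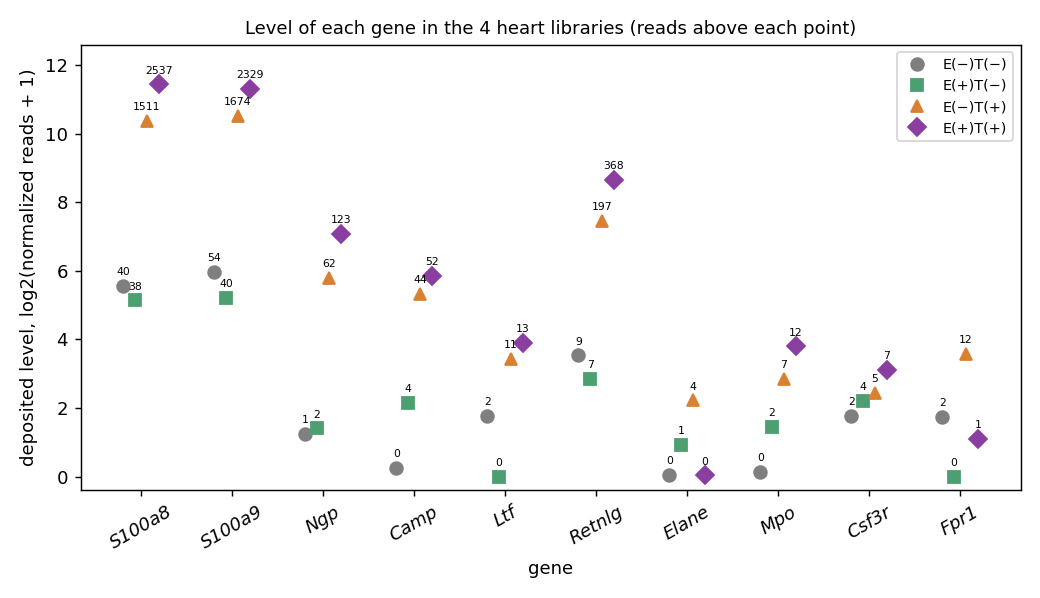
Deposited level, log2(normalized reads + 1), of each of the 10 genes in the 4 heart libraries, with 1 point per library and its reads printed above it. S100a8, S100a9, Ngp, Camp and Retnlg sit far higher in the 2 libraries with cancer, whereas Elane, Mpo, Csf3r and Fpr1 have at most 12 reads in any library.

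The granule genes of later maturation followed. Ngp encodes neutrophilic granule protein and had 1, 2, 62 and 123 reads in E(−)T(−), E(+)T(−), E(−)T(+) and E(+)T(+). Camp encodes cathelicidin, an antimicrobial peptide, and had 0, 4, 44 and 52 reads. Ltf encodes lactoferrin, which binds iron, and had 2, 0, 11 and 13 reads. At 0 to 4 reads the levels of all 3 without cancer were near the limit of detection, and Ltf stayed low with cancer too. A count of 0 allows up to 0.455 RPM in the normal control and up to 0.354 RPM in the normal exercise library. Retnlg, a resistin-like gene of myeloid cells, had 9, 7, 197 and 368 reads. It was the third most abundant of the 10 genes in both libraries with cancer.

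The primary granule genes Elane and Mpo were barely read. Elane encodes neutrophil elastase and had 0, 1, 4 and 0 reads. Mpo encodes myeloperoxidase, which makes hypochlorous acid, and had 0, 2, 7 and 12 reads. Neither gene was within reach of the levels of S100a8 in any library. Csf3r encodes the receptor for granulocyte colony-stimulating factor, the main growth factor of the lineage, and had 2, 4, 5 and 7 reads. Fpr1 encodes a receptor for formylated bacterial peptides and had 2, 0, 12 and 1 reads. The 2 receptors differed in their order, with Csf3r highest in E(+)T(+) and Fpr1 highest in E(−)T(+).

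The effect of exercise in normal mice, E(+)T(−) vs. E(−)T(−), was below 2-fold for each of the genes that could be called. S100a8, S100a9 and Retnlg reached 4 normalized reads, and none of these 3 was called. Of all 13930 genes that passed this minimum, 5.88% were called higher and 6.40% lower. The log2 fold change of S100a8 was −0.42, with a ratio of reads of −0.42 on the log2 scale (95% interval −1.10 to 0.26). S100a9 had a fold change of −0.77, and its interval of −1.40 to −0.16 lay below 0. Retnlg had −0.70 on 7 reads against 9 (−2.36 to 0.89). All 3 were lower with exercise, and counting error covered 0 for S100a8 and Retnlg. The other 7 genes had 4 reads or fewer in both libraries, and a difference among them was not detectable at this depth.

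The effect of cancer without exercise, E(−)T(+) vs. E(−)T(−), was larger. Of the 10 genes, 9 passed the minimum, 8 were called higher and none was called lower. Over all 14311 genes that passed, 14.6% were called higher and 13.1% lower. The median log2 fold change was 3.31 over the 10 genes, or 2.66 with genes at 0 reads set to the floor, and 0.012 over all 16389 genes with a read in either library. Each of the 10 genes had a positive fold change.

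S100a8 was 29.1-fold higher, a log2 ratio of reads of 4.86 (95% interval 4.41 to 5.35), and S100a9 was 23.9-fold higher, a log2 ratio of 4.58 (4.19 to 4.995). The intervals of the pair overlapped. Ngp was 47.7-fold higher on 62 reads against 1, with a wide interval of 3.05 to 10.90 on the log2 scale. Camp had 0 reads in E(−)T(−) and was at least 11.3-fold higher against a floor of 3 reads. Retnlg was 16.8-fold higher, a log2 ratio of 4.07 (3.12 to 5.22). Each of these 5 intervals lay above a 2-fold change.

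The other calls rested on few reads. Fpr1 was 4.62-fold higher on 12 reads against 2, and its interval on the log2 scale, 0.04 to 5.41, nearly reached 0. Ltf was 4.23-fold higher on 11 reads against 2 (−0.12 to 5.30), and this interval held 0. Mpo was at least 1.8-fold higher on 7 reads against 0. Csf3r, with 5 reads against 2, was not called (−1.67 to 4.34). Elane, with 4 reads against 0, did not pass the minimum.

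**Figure D2:**
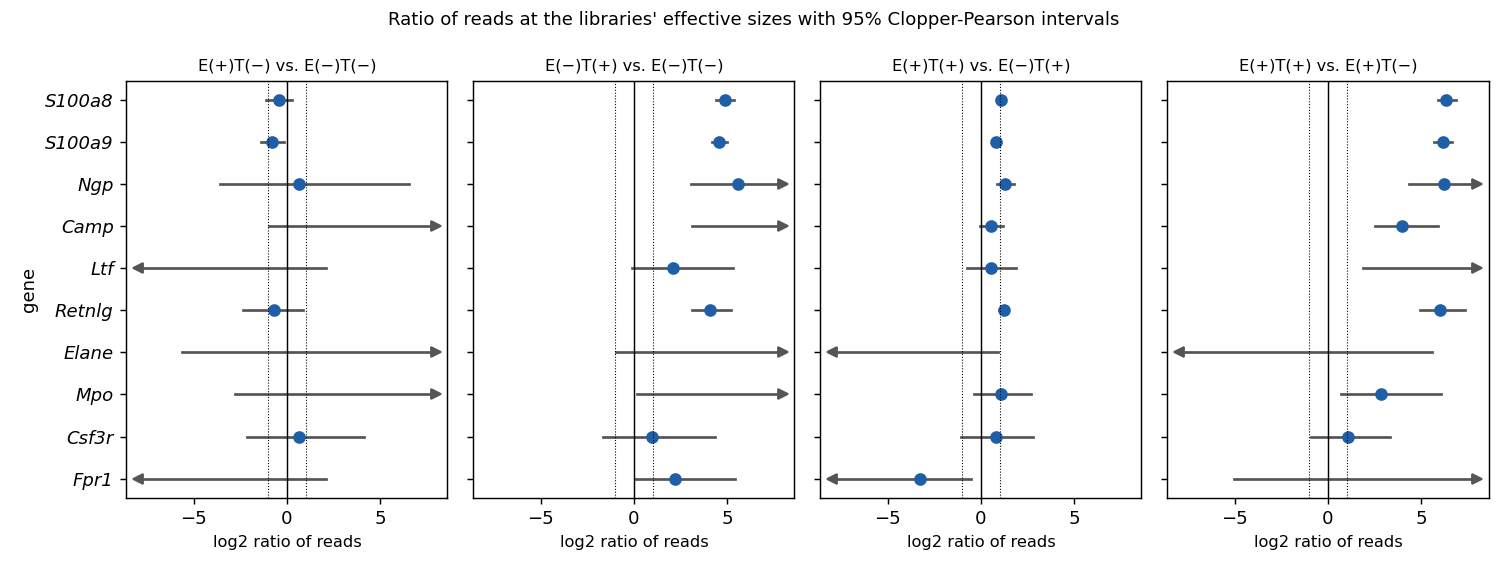
Log2 ratio of reads of each of the 10 genes in the 4 comparisons, with points for the ratio at the libraries' effective sizes and bars for 95% Clopper-Pearson intervals (an arrow marks a bar that runs off the axis, and a gene at 0 reads in 1 library has no point). Dotted lines mark a 2-fold change. S100a8 and S100a9 sit between 4.58 and 6.34 in both comparisons for cancer and between −0.78 and 1.06 in both comparisons for exercise.

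The effect of cancer with exercise, E(+)T(+) vs. E(+)T(−), was of the same kind, and this comparison shares no library with the one just described. Of the 10 genes, 8 passed the minimum and 7 were called higher, whereas 12.0% of all 14282 genes were called higher and 11.1% lower. The median log2 fold change of the 10 genes was 3.80, or 4.68 over the 8 genes above 3 reads in either library with Ltf set to the floor, against −0.006 over all 16337 genes with a read. S100a8 was 80.7-fold higher, a log2 ratio of 6.34 (95% interval 5.87 to 6.84), and S100a9 70.4-fold (5.69 to 6.63). Ngp was 74.4-fold higher (4.33 to 9.28), Retnlg 63.6-fold (4.93 to 7.32) and Camp 15.7-fold (2.53 to 5.90). Ltf, with 13 reads against 0, was at least 5.24-fold higher, and Mpo was 7.25-fold higher on 12 reads against 2 (0.69 to 6.06). Csf3r had 7 reads against 4 and was not called. Elane and Fpr1 had at most 1 read in either library.

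Within cancer, exercise set E(+)T(+) against E(−)T(+), and the differences were smaller and depended on the scaling. Of the 10 genes, 9 passed the minimum, 3 were called higher and 1 lower, against 9.39% of all 14357 genes higher and 10.0% lower. The median log2 fold change was 0.73, against −0.018 over all 16464 genes with a read. S100a8 had a log2 fold change of 1.06 (95% interval of the ratio of reads 0.97 to 1.15), Ngp of 1.28 (0.85 to 1.76) and Retnlg of 1.20 (0.96 to 1.47). S100a9 was not called, at 0.79 (0.70 to 0.88). The intervals of S100a8 and S100a9 did not overlap. Camp had 52 reads against 44 and a fold change of 0.53 (−0.06 to 1.16), which was −0.02 with reads scaled to library totals. Ltf, Mpo and Csf3r had intervals that held 0, and Elane did not pass the minimum.

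Fpr1 was the gene called lower, with a log2 fold change of −2.46 on 1 read against 12. The ratio of reads was 9.68-fold, with an interval on the log2 scale of −8.69 to −0.52. It was thus the only member with both a called increase with cancer in mice without exercise and a called decrease with exercise in cancer-bearing mice. Both calls were lost with a minimum of 16 normalized reads.

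With reads scaled to library totals, S100a8 changed by 0.47, Ngp by 0.72 and Retnlg by 0.63 with exercise in cancer-bearing mice, and no gene of the 10 was called higher. Under this scaling the median of all genes whose mean reached 16 normalized reads stood at −0.59, and 13.6% of all calls were increases, whereas 48.4% were as deposited. Relative to that median, the 3 genes were still higher. S100a8 was also just below 2-fold, at 0.99, with the genes over 1% of a library taken out of the total. In E(+)T(+) vs. E(+)T(−) the same scaling put the median at −0.74 and the share of increases at 14.1% against 52%, and 7 genes were called higher there too. In E(−)T(+) vs. E(−)T(−) the median was −0.17 and the share 43.2% against 52.7%, and the number called higher was 8 as before. The share of globin reads moved with both comparisons that hold E(+)T(+). With globin genes left out of each library total, a scaling added after seeing the data, S100a8 changed by 1.03, Ngp by 1.25 and Retnlg by 1.17 with exercise in cancer-bearing mice. All 3 calls were thus present under that scaling, with the median of all genes at −0.037.

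Ratios between genes within a library do not depend on scaling. S100a9 had 111 reads per 100 S100a8 reads in E(−)T(+) (95% interval 103 to 119) and 91.8 in E(+)T(+) (86.7 to 97.2). In the libraries without cancer the values were 135 (88 to 209) and 105 (65.8 to 169), which overlap with both. S100a9 was thus lower relative to S100a8 with exercise in the libraries with cancer. Retnlg had 13 reads per 100 S100a8 reads in E(−)T(+) and 14.5 in E(+)T(+), and Ngp had 4.1 and 4.85. Of the 9 genes set against S100a8, 7 had overlapping intervals in the 2 libraries with cancer. S100a9 and Fpr1 did not, and both were lower in E(+)T(+). Among the 7, Elane, Mpo, Csf3r and Ltf had 13 reads or fewer per library, so their wide intervals could hardly fail to overlap. Of all 11632 other genes whose mean reached 16 normalized reads, 79.8% were lower without overlap and 1.20% higher.

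The same ratio was taken for the wider set of neutrophil genes. For each list of related genes, the members with the largest change were taken, and of 15 such genes from the granule, receptor and inhibitor lists, 12 were lower relative to S100a8 in the cancer exercise than in the cancer control library, with intervals that did not overlap. Of all 11632 other genes whose mean reached 16 normalized reads, 79.8% were lower in the same way and 1.20% higher, so that 12 of 15 is close to the share over all genes. None of the 15 was higher, and 3 had overlapping intervals. These 3 were Mmp8, a collagenase of secondary granules, Hp, the haptoglobin that neutrophils store in granules, and Il1r2, a decoy receptor for interleukin 1. Mmp8 had 6.75 reads per 100 S100a8 reads (5.47 to 8.25) in E(−)T(+) and 6.66 (5.67 to 7.79) in E(+)T(+). Lcn2, the lipocalin that captures bacterial siderophores and is also made by other inflamed tissue, went from 74.3 (68.7 to 80.3) to 14.5 (12.9 to 16.1). Slpi, an inhibitor of elastase, went from 19.5 (17.2 to 22.1) to 3.71 (2.98 to 4.55). Mmp8 thus kept its ratio to S100a8, whereas Lcn2 and Slpi did not.

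**Figure D3:**
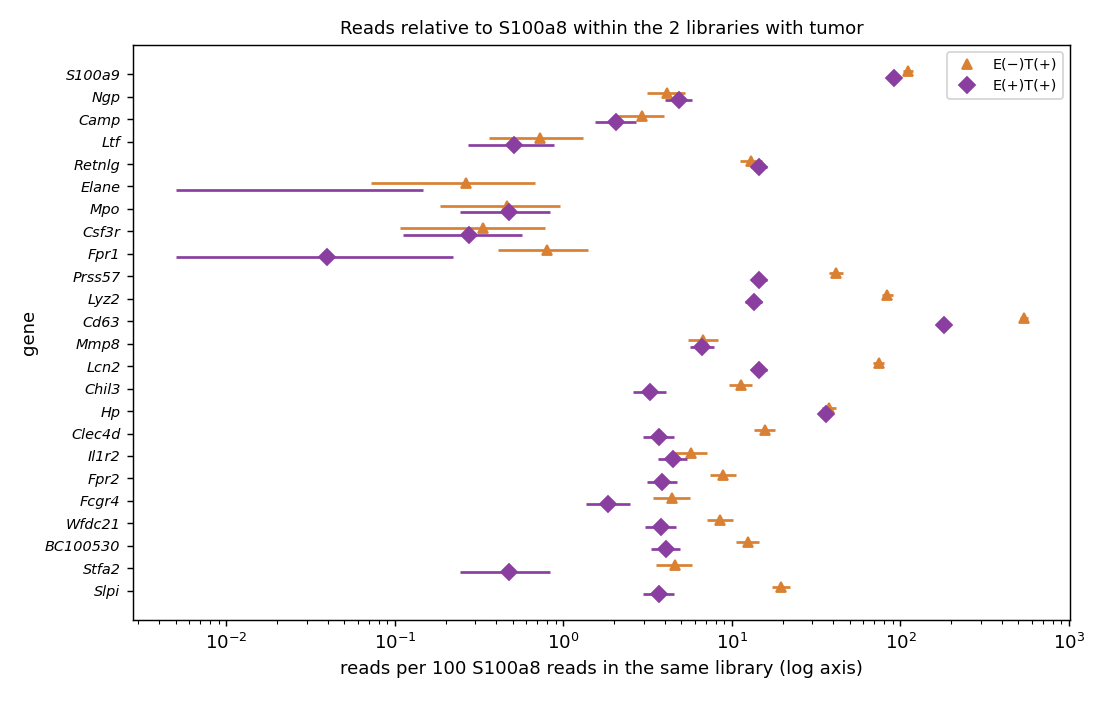
Reads per 100 S100a8 reads, on a log axis, of the other 9 genes and of 15 genes of the neutrophil lists in the 2 libraries with cancer, with 95% Clopper-Pearson intervals (a gene at 0 reads has no point). Ngp, Retnlg, Mmp8 and Hp overlap between the libraries, whereas Lcn2, Slpi, Stfa2 and Lyz2 are lower in E(+)T(+).

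Among the 18 secondary and tertiary granule genes, to which Ngp, Camp, Ltf and Retnlg belong, 12 were called higher and none lower in E(−)T(+) vs. E(−)T(−). Over all genes that passed, 14.6% were called higher and 13.1% lower there. Mmp8 had 0, 0, 102 and 169 reads in E(−)T(−), E(+)T(−), E(−)T(+) and E(+)T(+), and it was at least 26.2-fold higher with cancer. Hp had 47, 63, 571 and 922 reads. Both were highest in E(+)T(+), as S100a8 was. Lcn2 had 14, 17, 1123 and 367 reads, and Chil3, which encodes a chitinase-like protein of myeloid cells, had 7, 3, 170 and 83. Exercise in cancer-bearing mice went with 4 higher calls and 1 lower, and with reads scaled to library totals 0 were higher and 9 lower. Over all genes that passed, 9.39% were called higher and 10.0% lower as deposited. Library totals gave 582 higher and 3686 lower calls among all genes, with their median at −0.59, so lower calls prevailed there too. The summed normalized reads of the list stood at 3203 in E(−)T(+) and 3263 in E(+)T(+), but in RPM at 380.5 and 258.7.

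Of the 9 primary granule genes, 6 were called higher with cancer and none lower in mice without exercise, against 14.6% of all genes higher and 13.1% lower. Of those with many reads, Lyz2 and Cd63 are not particular to neutrophils. Lyz2, a lysozyme that macrophages also make, had 357, 737, 1258 and 343 reads. Cd63, a membrane protein of granules and lysosomes in many cells, had 2481, 3557, 8141 and 4594. Prss57 had 131, 268, 624 and 367, and it overlaps Fstl3 on the other strand, so its reads are uncertain. In E(+)T(+) vs. E(−)T(+), Lyz2 was the only gene of the list called as deposited, and it was lower, with a log2 fold change of −1.56, whereas with reads scaled to library totals 3 were lower. The shares over all genes were 9.39% higher and 10.0% lower as deposited. With library totals, 582 of all genes were called higher and 3686 lower. Prtn3 had 3, 1, 21 and 15 reads, Ctsg had 0, 3, 5 and 6, and Ms4a3 had 0, 0, 0 and 1. Bpi had 0 reads in all 4 libraries.

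Of the 25 cytosolic and protease inhibitor genes, most were called with cancer. In mice without exercise, 19 were called higher and 1 lower, and with exercise in cancer-bearing mice, none was called higher and 6 lower, and with reads scaled to library totals 0 higher and 13 lower. Of all genes, 14.6% were higher and 13.1% lower in the former comparison, and 9.39% and 10.0% in the latter. Library totals gave 582 higher and 3686 lower calls among all genes in the latter. BC100530, a stefin that inhibits cysteine proteases, had 1, 1, 187 and 103 reads. Its near-identical copies, Stfa2 among them, share reads that the counting could divide, so each is uncertain. Stfa2 had 2, 0, 69 and 12 reads. Wfdc21 had 9, 0, 129 and 96 reads, and Slpi had 9, 5, 295 and 94. Slpi had a log2 fold change of 4.50 with cancer and of −1.34 with exercise in cancer-bearing mice. As deposited, all 4 were lower in E(+)T(+) than in E(−)T(+), with Stfa2 and Slpi past 2-fold. Wfdc21 was nearly level, at log2 values of 6.85 in E(−)T(+) and 6.72 in E(+)T(+).

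Of the 25 receptor genes listed, which include Csf3r and Fpr1, 14 were called higher and 1 lower with cancer in mice without exercise. With exercise in cancer-bearing mice, 1 was called higher and 7 lower, and with reads scaled to library totals 0 higher and 11 lower. Of all genes, 14.6% were higher and 13.1% lower in the former comparison, and 9.39% and 10.0% in the latter. Library totals gave 582 higher and 3686 lower calls among all genes in the latter. Clec4d, a lectin receptor, had 2, 14, 237 and 94 reads, and Fcgr4, a receptor for antibodies, had 4, 5, 67 and 47. Fpr2, the relative of Fpr1, had 8, 22, 134 and 98. Fpr2 thus stayed high in E(+)T(+), with a log2 fold change of −0.15 (−0.53 to 0.25), where Fpr1 had 1 read. Il1r2 had 4, 3, 86 and 113 reads.

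Within the S100 family, the libraries were ordered in several ways. Of 17 S100 genes, 5 were called higher and 1 lower in E(−)T(+) vs. E(−)T(−), against 14.6% of all genes higher and 13.1% lower. S100a4, a gene of fibroblasts and many myeloid cells, had 281, 443, 5471 and 982 reads, and S100a6 had 1270, 1847, 7951 and 2624. Both had log2 fold changes with cancer of 3.90 and 2.27, and of −2.17 and −1.29 with exercise in cancer-bearing mice, where S100a8 had 1.06. S100b, known from glia and Schwann cells, had 136, 191, 54 and 56 reads and was lower with cancer in both comparisons, at −1.69 and −1.48. S100a10 had 720, 1219, 1533 and 917 reads and was not called as deposited. S100a8 was the only gene of the family called higher in E(+)T(+) vs. E(−)T(+), while 3 were called lower, and with reads scaled to library totals 0 were higher and 5 lower. The shares over all genes were 9.39% higher and 10.0% lower as deposited. With library totals, 582 of all genes were called higher and 3686 lower.

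**Figure D4:**
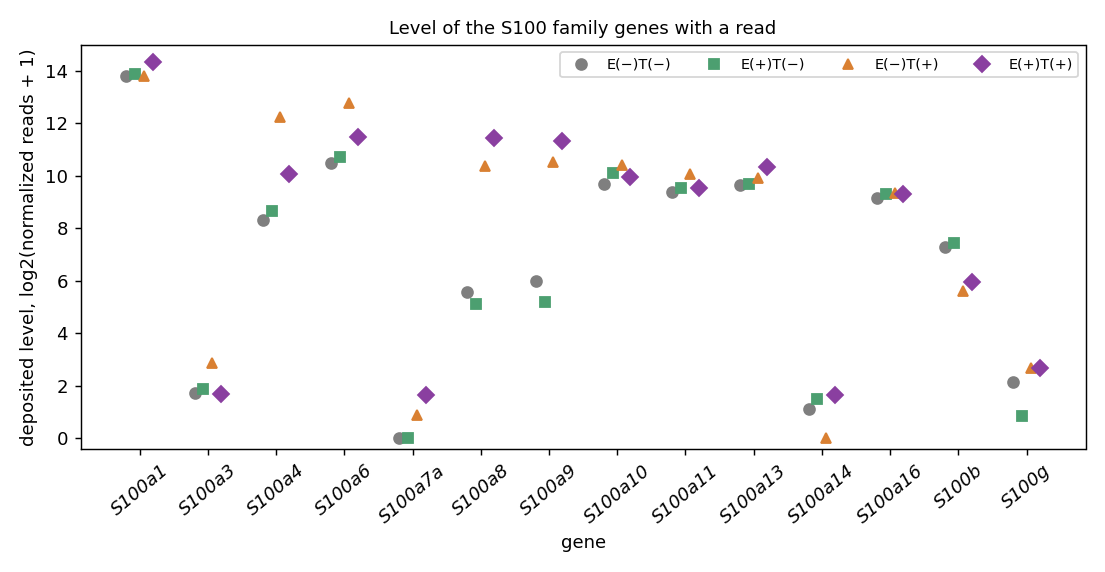
Deposited level, log2(normalized reads + 1), of the S100 family genes with a read in the 4 heart libraries, 1 point per library. S100a8 and S100a9 are highest in E(+)T(+), whereas S100a4 and S100a6 are highest in E(−)T(+) and S100b is lower in both libraries with cancer.

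Of 10 genes for receptors and partners of S100A8 and S100A9, 9 passed the minimum with cancer in mice without exercise. Of these, 2 were called higher, namely Cd14 and Emb, and none lower, against 14.6% of all genes higher and 13.1% lower. Cd14, which hands bacterial lipopolysaccharide to TLR4, had 71, 166, 294 and 611 reads in E(−)T(−), E(+)T(−), E(−)T(+) and E(+)T(+). It followed the order of S100a8 in the libraries with cancer. Emb, which encodes embigin, had 16, 43, 175 and 69. Ager, the receptor for advanced glycation end products, had 28, 20, 52 and 78 reads, and Ly96, the partner of TLR4, had 22, 12, 32 and 16.

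Among 20 genes listed for granulopoiesis, which include the clock gene Per3, 7 were called higher and 1 lower in E(−)T(+) vs. E(−)T(−). Over all genes, 14.6% were called higher and 13.1% lower. Csf3, Csf2, Il6, Il17a and Cebpe, the factor for secondary granule genes, had 0 reads in all 4 libraries. Socs3, a feedback inhibitor of cytokine receptors, had 76, 243, 779 and 1398 reads, the same order of the libraries with cancer as S100a8. Cebpd had 321, 625, 1732 and 1159, and Il17ra, the receptor for interleukin 17, had 59, 63, 266 and 170. Per3, a clock gene, had 37, 13, 51 and 7.

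Among 10 chemokines and other attractants of neutrophils, 5 were called higher and 1 lower with cancer in mice without exercise, and with reads scaled to library totals 3 and 2. In E(+)T(+) vs. E(−)T(+), 6 were called higher and 1 lower, and with library totals 4 and 2. Of all genes, 14.6% were higher and 13.1% lower in the former comparison, and 9.39% and 10.0% in the latter. Library totals gave 1763 higher and 2320 lower calls among all genes in the former, and 582 and 3686 in the latter. Cxcl2 had 4, 0, 13 and 265 reads and was 25.3-fold higher in E(+)T(+) than in E(−)T(+), a log2 ratio of 4.66 (95% interval 3.86 to 5.59). Cxcl1 had 12, 17, 49 and 135 reads and was 3.42-fold higher there (1.29 to 2.28). Both are ligands of the neutrophil receptor CXCR2, and both kept their calls under library totals. Cxcl15 had 25, 8, 13 and 48 reads. Lgals3, which encodes galectin 3, went the other way, with 44, 88, 990 and 340 reads.

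Of 10 adhesion genes for the entry of neutrophils, 2 were called higher and 3 lower with cancer in mice without exercise. The shares over all genes were 14.6% higher and 13.1% lower. Selp, the P-selectin of platelets and endothelium, had 3, 7, 93 and 41 reads, and Icam1, the endothelial ligand of leukocyte integrins, had 51, 87, 233 and 132. Icam2 had 368, 357, 197 and 354, and Jam3 had 174, 211, 111 and 114. Selp and Icam1 were thus highest in E(−)T(+), unlike S100a8.

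Genes of other cells moved with these libraries. The summed normalized reads of the 10 neutrophil genes were 127.8, 87.63, 3112 and 5948 in E(−)T(−), E(+)T(−), E(−)T(+) and E(+)T(+). Relative to E(−)T(−) they stood at 0.686, 24.3 and 46.5. In RPM the same values were 0.693, 22.2 and 28.3. Of the 3527 reads of the 10 genes in E(−)T(+), S100a8 had 1511 and S100a9 1674. Of the 5442 in E(+)T(+) they had 2537 and 2329, so that the sums with cancer mostly show these 2 genes. The 18 macrophage and monocyte markers stood at 1.25, 2.49 and 1.49, or in RPM at 1.23, 2.24 and 0.894, so that E(+)T(+) lay above E(−)T(−) on the deposited scale and below it in RPM. Of these markers, 10 were called higher and 1 lower with cancer in mice without exercise, against 14.6% of all genes higher and 13.1% lower. At any size of change, 12 were higher and 5 lower, the latter being Adgre1, Csf1r, Cx3cr1, Ccr2 and Timd4. Marco, a scavenger receptor, had 1, 0, 376 and 11 reads and Arg1 had 0, 2, 444 and 32, so that both were highest in E(−)T(+). The erythroid markers stood at 0.966, 0.992 and 6.82, and 15 of 15 were called higher in E(+)T(+) vs. E(−)T(+), against 9.39% of all genes. The platelet markers stood at 1.84, 3.7 and 2.84, the proliferation markers at 1.03, 2.48 and 3.73 and the lymphocyte markers at 0.694, 0.441 and 0.946. In RPM, E(+)T(+) stood at 4.08 for the erythroid, 1.7 for the platelet, 2.25 for the proliferation and 0.562 for the lymphocyte markers. The 18 eosinophil, basophil and mast cell markers stood at 1.27, 1.5 and 0.98, or in RPM at 1.25, 1.34 and 0.587, with 3 called higher and 2 lower with cancer in mice without exercise. The mast cell protease genes Cma1 and Cpa3 had 23, 54, 21 and 37 reads and 28, 77, 87 and 43 reads, Gata2 had 156, 192, 327 and 116, and Kit had 33, 29, 2 and 4. Epx and Prg3 of eosinophils and Mcpt8 of basophils had 0 reads in all 4 libraries. The cardiomyocyte markers stood at 0.999, 1.04 and 1.1, or in RPM at 0.985, 0.932 and 0.659, and they took 4.54% to 6.9% of the reads, so that each library held the defining genes of its labelled tissue. The sum of the 10 genes was thus raised along with the summed macrophage markers in E(−)T(+) and with erythroid genes in E(+)T(+), whose part in the results was not tested. The sums of the wider neutrophil lists did not all follow that of the 10 genes. Each sum mostly shows its most abundant genes, and these lists hold genes well read without cancer. Cd63 had 2481 of the 2972 reads of the primary granule list in E(−)T(−). In E(−)T(+) and E(+)T(+) the receptor genes stood at 3.24 and 1.85, or in RPM at 2.92 and 1.11. The cytosolic and inhibitor genes stood at 3.11 and 1.87, or in RPM at 2.8 and 1.12. The primary granule genes stood at 2.6 and 1.71, or in RPM at 2.34 and 1.03. In RPM these 3 lists were thus near the level of E(−)T(−) in E(+)T(+). The secondary and tertiary granule genes stood at 3.47 and 3.53, or in RPM at 3.12 and 2.12. Ly6g, a defining neutrophil surface marker, had no value under this symbol and could not be analysed.

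**Figure D5:**
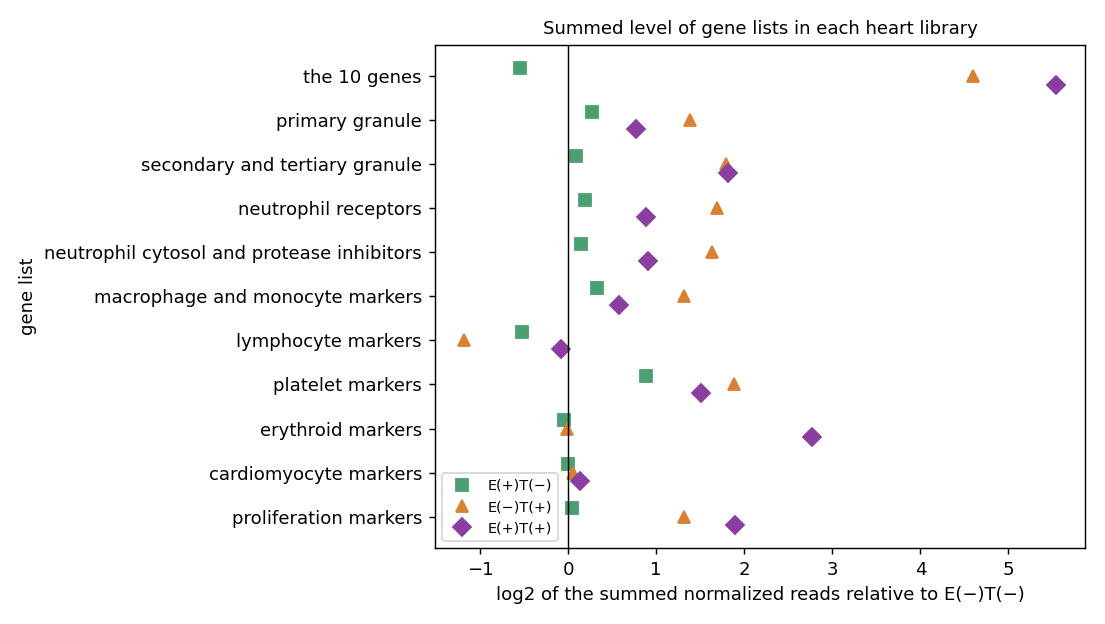
Summed normalized reads of each gene list in 3 heart libraries relative to E(−)T(−), on a log2 axis, with 1 point per library. The 10 genes stand highest in both libraries with cancer, the macrophage markers are highest in E(−)T(+), the erythroid markers are raised in E(+)T(+) alone and the cardiomyocyte markers stay near 0.

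The genes whose pattern over the 4 libraries was most like that of S100a8 were S100a9, Ngp, Saa2, Retnlg and Gzmf. Likeness was the Euclidean distance between log2 values after each gene's mean was taken off, among genes whose mean reached 16 normalized reads. S100a9 was nearest at a distance of 0.392, and Gzmf, a granzyme, was at 1.11. Saa2, a serum amyloid A gene of the acute phase, had 0, 0, 24 and 43 reads. For Ngp, the nearest were Saa2, at 0.357, S100a8, Retnlg, S100a9 and Car1, a carbonic anhydrase of red cells with 0, 1, 29 and 119 reads. S100a9 and Retnlg were thus among the nearest genes of both S100a8 and Ngp. For Csf3r, which had at most 7 reads, the nearest were Pdlim3, Nudt4, Asb11, Zkscan5 and Spa17, of which none is a neutrophil gene. Each likeness rests on 4 libraries that share depth and scaling.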

How the data were processed

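mRNA-seq of the heart was analysed for 4 groups with 1 library each. The 10 genes, the gene lists and the rules were chosen with earlier results of these data known. Per the paper, libraries were made with the QuantSeq kit from total RNA, reads were aligned with Bowtie2 and counted with bedtools, and the authors normalized the counts by a quantile method of edgeR. The submitters' processing notes give the build as mm10. What the authors deposited is log2(normalized reads + 1) for each gene. From them, whole reads were recovered under fitted library sizes and a dispersion of 0.149, each value was given back to within 0.000512, and 100% of 25460 values from 5 to 99 reads came out within 0.1 of a whole number. The recovery and the calls were tested on simulated data.

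Fold changes are differences of deposited log2 values, which makes changes of low genes look smaller. A call needed a fold change of 2 and 4 normalized reads in at least 1 of the 2 libraries. With 1 library per group there is no test. Ratios of reads at the effective library sizes have 95% Clopper-Pearson intervals. PCR copies are not independent molecules, so intervals and floors cover counting error only. Against 0 reads, a floor of 3 reads was used. Of 35 symbols with more than 1 value the highest mean was kept, and no gene of the 10 was among them. The text names all 10 genes, up to 4 further genes of each list with the largest difference between any 2 libraries where the mean reached 16 normalized reads, and the 5 nearest patterns of S100a8, Ngp and Csf3r. Genes listed at 0 and the ratios to S100a8 were chosen after their values were seen, as were Prg3, Epx, Mcpt8, Bpi, Prtn3, Ctsg and Ms4a3. S100pbp, which encodes a binding protein and not an S100 protein, was left out of the counts of S100 genes. Positions are from GENCODE on GRCm38, the assembly of mm10. Alternatives covered scaling, the minimum, the pseudocount, depth and duplicate symbols. The computations used matplotlib 3.10.9, pandas 2.3.3, scipy 1.17.1 and numpy 2.4.6 under Python 3.11.15.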

Additional observations from a re-analysis of the deposited data

Results flagged for a closer look

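For 3 of the genes the log2 fold change with exercise had opposite signs in normal and in cancer-bearing mice. S100a8 had a log2 fold change of −0.42 in E(+)T(−) vs. E(−)T(−) and of 1.06 in E(+)T(+) vs. E(−)T(+). S100a9 had −0.77 and 0.79, and Retnlg had −0.70 and 1.20. These are the 3 genes that passed the minimum of normalized reads in both comparisons. The difference between normal and cancer-bearing mice was not tested, because each group has 1 library. The values in normal mice rest on 7 to 54 reads per library, and none was called there. Counting intervals held 0 there for S100a8 and Retnlg, and S100a9 was not called in either comparison.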

How the results depend on the processing

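Of 360 fold changes of the 10 genes under alternatives, 354 moved by less than their counting interval, 6 moved further and no called value reversed. The 354 include values that could not move. A change of the minimum alters calls but no fold change, and no gene of the 10 has duplicate rows to sum. Of the values not called, 4 changed sign, those of Camp and Ltf in E(+)T(+) vs. E(−)T(+) under library totals, at −0.02 and −0.008, and those of Csf3r in both comparisons with E(+)T(+) when reads were subsampled. Scaling to library totals called 1 gene higher in E(+)T(−) vs. E(−)T(−), which was Camp, and 0 in E(+)T(+) vs. E(−)T(+). There the log2 fold changes were 0.47 for S100a8, 0.20 for S100a9, 0.72 for Ngp and 0.63 for Retnlg, with the median of all genes at −0.59. With no minimum, 2 genes were called higher and 2 lower in E(+)T(−) vs. E(−)T(−), and 2 lower in E(+)T(+) vs. E(−)T(+). A minimum of 16 normalized reads left 5 genes called higher in E(−)T(+) vs. E(−)T(−) and 0 called lower in E(+)T(+) vs. E(−)T(+), since Ltf, Mpo and Fpr1 lie under it. Mpo lost its call in E(−)T(+) vs. E(−)T(−) when reads were subsampled to the smallest library, at 1.94, and was called in E(+)T(+) vs. E(−)T(+) under that subsampling, at 1.72, and with a pseudocount of 0.5, at 1.002, which made 4 genes called higher. With globin genes left out of the totals, a scaling added after seeing the data, 3 genes were called higher with exercise under cancer and 0 in normal mice, and cancer gave 8 without exercise and 7 with it, the same counts as deposited. No paired analysis was possible because each group has 1 library, and for the same reason no replicate could be left out. Depth limits Elane, Mpo, Csf3r, Fpr1 and Ltf, at 13 reads or fewer per library.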
